A study of Schizosaccharomyces pombe with 8 samples.

Results

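The comparison was between RNA recovered by 2 successive pulldowns, of TAP-tagged Mmi1 and then of 3xFLAG-tagged Mei2, and RNA of the extract from which it was recovered, in mitotic fission yeast. The members were the 4 libraries whose labels name the TAP-Mmi1 strain, of 8 in the series: 2 immunoprecipitates (IP) and 2 whole-cell extracts (WCE), with the IP and WCE of one replicate number taken as a pair because the WCE is the extract the IP was made from. In this strain the TAP-Mmi1 allele, marked with kanMX, is driven by Pnmt41, a form of the nmt1 promoter of medium strength, and the 3xFLAG-Mei2 allele, marked with natMX, by the strong Pnmt1. All 4 libraries share both alleles. Cells had grown for 2 days at 30 °C in minimal medium (EMM), were taken in exponential phase at an OD of 1 and were fixed with 0.2% formaldehyde. IgG beads held the TAP tag, TEV protease released it, and anti-FLAG beads then held Mei2. The 4 libraries of the control strain (GFP-Mmi1) were not used here, so RNA carried along by the beads cannot be told apart in these ratios from RNA held by the proteins.

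Mmi1 is a nuclear RNA-binding protein with a YTH domain. In mitotic cells it binds meiotic transcripts at clusters of the hexamer UNAAAC, called a determinant of selective removal (DSR), and directs them to the nuclear exosome. Mei2 is an RNA-binding protein that is needed for entry into meiosis, when it holds Mmi1 at the non-coding RNA meiRNA so that meiotic transcripts escape. Mmi1 in turn limits Mei2 during mitosis, and mamRNA, the long non-coding RNA (lncRNA) upstream of the U14 snoRNA gene, was named for its association with both proteins.

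Ribosomal RNA made up 79.2% and 82% of the counts of the 2 IP libraries and 14.2% and 27.4% of those of the WCE libraries, and it had been depleted from the WCE only. Total counts ran from 36440646 to 53709147 a library, and counts outside rRNA were 7585245 and 6816082 in the IP and 46081407 and 36296430 in the WCE. Of 6973 named features, 6812 were counted well enough to be tested. Values below are log2 IP/WCE, scaled by the trimmed mean of M values (TMM) so that a typical feature lies near 0 (the median of all tested features was -0.03), with the standard error (SE) of the paired fit of 2 IP against 2 WCE libraries. The labels do not say whether replicates were separate cultures, so p-values measure only the spread between these libraries. A feature was called higher or lower when its Benjamini-Hochberg adjusted p in edgeR's quasi-likelihood test was under 0.05. The direction is thus relative to the typical feature: scaling by library totals moved all values by a median of -2.36, and 283 features were then higher against 5856 lower. Scaling by the counts outside rRNA moved them by -0.33 and called 1550 higher and 3005 lower. Reads were counted without regard to strand as far as the values show: of 78 pairs of features that cover each other on opposite strands, between 68 and 73 pairs a library had counts within 0.15 on the log2 scale. A feature lying over another on the opposite strand therefore has no value of its own.

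By this test 2046 features (30.0%) were higher in the IP and 2223 (32.6%) were lower. A log2 of 4 or more was reached by 154 called features, among them 40 mRNAs and 51 lncRNAs, with rRNA features in the rest, and -4 or less by 22, among them 0 mRNAs and 2 lncRNAs. The classes of RNA differed. Small nuclear and nucleolar RNAs had a median log2 of 3.08, with 57 of 66 higher and 0 lower, and the medians of the 2 pairs were 3.07 and 3.07. The lncRNAs had a median of 0.66, with 640 of 1427 higher (44.8%) and 217 lower, but this median was -1.70 with library totals. The mRNAs had a median of -0.20, with 1263 of 5076 higher (24.9%) and 1945 lower (38.3%). The 532 lncRNAs that lie by less than 50% over a feature on the opposite strand had a median of 1.29, with 276 higher and 38 lower. Ribosomal RNA features had a median of 6.65, and here IP and WCE cannot be told apart from the depletion that only the WCE went through. That depletion goes with the fraction for every class, and its part in the values of the other classes was not tested.

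**Figure D1:**
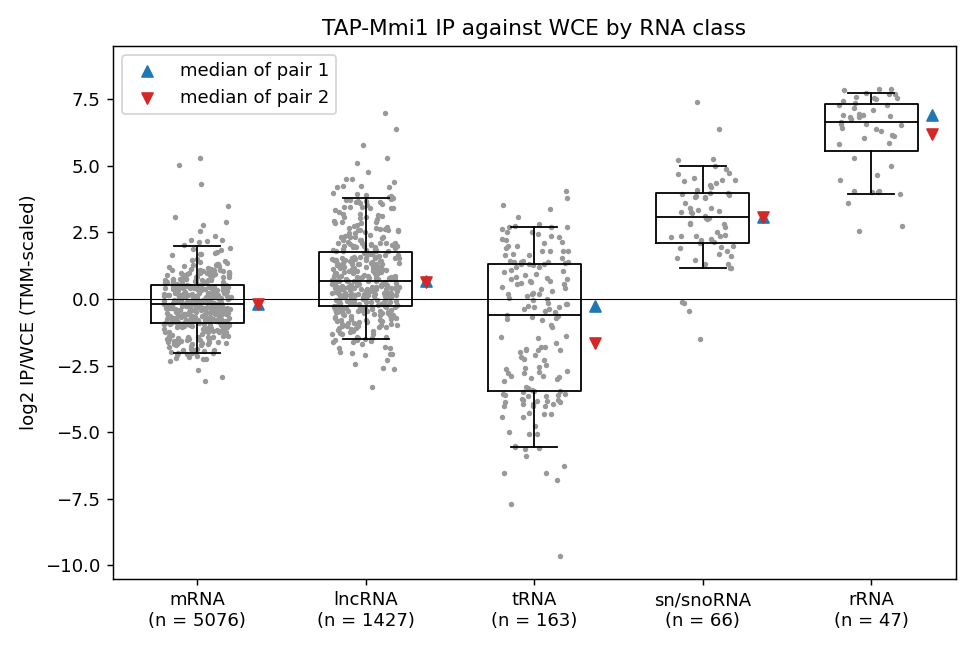
log2 IP/WCE (TMM-scaled) of tested features by RNA class. Boxes span the quartiles with the median as a line, whiskers run from the 5th to the 95th percentile, grey points are up to 400 features a class, and triangles are the medians of each replicate pair. Small nuclear and nucleolar RNAs lie around a median of 3.08, lncRNAs around 0.66 and mRNAs around -0.20, while the tRNA pair medians, -0.27 and -1.64, lie apart.

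The sequences below are shown because they hold, to different degrees, or lack the motif that Mmi1 reads in transcripts at the top and bottom of the comparison. Each is 90 nt of the sense strand (T for U), 5′ to 3′, with every UNAAAC in capitals, chosen as the stretch with most motifs in the lncRNA or, for mRNAs, within one coding exon. They come from RefSeq assembly ASM294v3, and motif totals are those within the reference transcript. For meiRNA the study counts more UNAAAC motifs than the 9 within the reference span used here. Of other high transcripts, not shown, mug45 and mcp5 had 3 motifs in their densest stretch. ssm4, rep1 and SPNCRNA.1197 had 2, and omt3 and rps2202 had 1. The first 7 sequences shown belong to transcripts that were higher in the IP. They are mamRNA (chromosome II, 1308107 to 1308196, plus strand, 3 motifs, all that the 679 nt transcript holds), nam1 (chromosome II, 1742693 to 1742782, minus strand, 4 of 9 motifs), meiRNA-L (chromosome II, 339356 to 339445, minus strand, 6 of 9), mug9 (chromosome III, 2369323 to 2369412, minus strand, 3 of 9), mug8 (chromosome I, 2446802 to 2446891, plus strand, 4 of 14), mei4 (chromosome II, 1473863 to 1473952, plus strand, 3 of 11) and rec8 (chromosome II, 2570108 to 2570197, plus strand, 3 of 15).
mamRNA: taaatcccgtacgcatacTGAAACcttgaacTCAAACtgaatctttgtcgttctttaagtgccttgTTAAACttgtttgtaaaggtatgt
nam1: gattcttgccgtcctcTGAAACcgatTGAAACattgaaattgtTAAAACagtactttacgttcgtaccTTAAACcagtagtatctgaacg
meiRNA-L: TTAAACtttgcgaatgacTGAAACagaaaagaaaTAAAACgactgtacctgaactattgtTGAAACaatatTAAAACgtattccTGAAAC
mug9: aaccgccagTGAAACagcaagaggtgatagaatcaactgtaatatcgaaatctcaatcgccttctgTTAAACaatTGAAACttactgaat
mug8: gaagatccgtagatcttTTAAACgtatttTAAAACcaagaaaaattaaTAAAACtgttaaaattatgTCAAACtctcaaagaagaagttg
mei4: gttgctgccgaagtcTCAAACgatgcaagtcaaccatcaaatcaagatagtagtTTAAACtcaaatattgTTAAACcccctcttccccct
rec8: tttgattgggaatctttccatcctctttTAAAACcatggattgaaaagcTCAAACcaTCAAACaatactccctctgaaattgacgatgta
The next pair were also higher in the IP, and their densest stretch holds 1 motif or none. They are cbl1 (chromosome III, 1453306 to 1453395, plus strand, 1 of 4 motifs) and the whole 112 nt of the U14 snoRNA (chromosome II, 1308634 to 1308745, plus strand, 0 motifs).
cbl1: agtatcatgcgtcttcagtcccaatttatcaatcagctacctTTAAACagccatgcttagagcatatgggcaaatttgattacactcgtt
snoU14: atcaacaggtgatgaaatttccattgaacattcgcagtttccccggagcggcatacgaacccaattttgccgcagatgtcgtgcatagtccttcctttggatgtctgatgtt
The last pair come from mRNAs that were lower in the IP, pdc101 (chromosome I, 102427 to 102516, minus strand, 1 of 3 motifs) and act1 (chromosome II, 1476549 to 1476638, minus strand, its only motif).
pdc101: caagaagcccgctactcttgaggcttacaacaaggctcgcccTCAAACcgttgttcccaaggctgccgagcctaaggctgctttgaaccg
act1: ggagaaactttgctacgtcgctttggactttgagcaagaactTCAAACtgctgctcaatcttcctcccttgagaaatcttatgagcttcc

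The U14 snoRNA and the lncRNA upstream of it stood among the highest called features outside rRNA. The snoRNA, a guide of early rRNA processing, was counted 22685 and 29309 times in the IP and 1035 and 1156 times in the WCE, a log2 IP/WCE of 7.40 ± 0.22 (SE, adjusted p = 5e-08). mamRNA was counted 177540 and 190526 times in the IP and 13911 and 9856 times in the WCE (6.81 ± 0.36, adjusted p = 4.93e-07). Both replicates of both features lay far above the WCE. mamRNA ends 275 nt before the snoRNA begins, on the same strand. On the other side, sol1, which lies on the opposite strand 327 nt beyond the snoRNA, had a log2 of 1.42, and ldb1, upstream of mamRNA, was lower (-0.82).

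The matched lncRNAs that are known with Mmi1 or Mei2 were all higher. Of 14 names, some of them for the same RNA, 7 matched a feature. All 7 were called higher, with a median of 3.94 (1.58 with library totals). Among all features 30.0% were higher, and among lncRNAs 44.8%. The study picked mamRNA, omt3 and meiRNA from the enrichment seen in this same experiment, so their calls were favoured beforehand. The count of 7 is therefore no test. nam1, a regulatory lncRNA that represses byr2, was counted 29183 and 26067 times in the IP and 2152 and 1523 times in the WCE (6.77 ± 0.22, adjusted p = 5.91e-08). omt3, a lncRNA of the mei2 locus, was counted 96366 and 95980 times in the IP and 16229 and 11852 times in the WCE (5.63 ± 0.27, adjusted p = 3.34e-07). In both, each IP library lay far above the WCE. The long isoform of meiRNA (gene sme2) had 88283 and 60780 IP counts and 45595 and 26310 WCE counts (3.92 ± 0.24, adjusted p = 1.04e-06). It shares its reads with the short isoform inside it (4.20 ± 0.21), and both pairs of libraries stood apart by 3.97 and 3.87. The centromeric lncRNA nam6 had a log2 of 3.82 ± 0.43 from only 197 and 119 IP counts, nam5 had 3.94, and prt2, a lncRNA of the phosphate locus, had 3.49 ± 0.18.

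Some of the highest lncRNAs have only a number for a name. SPNCRNA.1197 was counted 66062 and 58395 times in the IP and 4194 and 2902 times in the WCE (6.99 ± 0.25, adjusted p = 8.73e-08). SPNCRNA.1444, of 322 nt, was counted 1724 and 1783 times in the IP and only 122 and 81 times in the WCE (6.97 ± 0.19). SPNCRNA.877, SPNCRNA.243 and SPNCRNA.405 followed with 5.79, 5.60 and 5.34, each from 217 WCE counts or fewer. Of SPNCRNA.243, 64.0% lies over hsp3105 on the same strand, so its reads are in part those of that gene. So the top of the lncRNA order held both abundant transcripts and ones that the extract barely showed. At the low end stood srp7, the 7SL RNA of the signal recognition particle, with 8835 and 10734 IP counts against 377254 and 304042 in the WCE (-2.28 ± 0.21, adjusted p = 1.19e-05). Other low lncRNAs with at least 50 counts in each WCE library and less than 50% of their length over the opposite strand (SPNCRNA.1245, SPNCRNA.741, SPNCRNA.625, SPNCRNA.870, SPNCRNA.1103 and SPNCRNA.1611, from -2.69 to -1.82) lie by 26.6 to 49.6% over an abundant gene on the opposite strand, such as rpl2702 (-3.25) or rpl2001 (-3.17), whose reads they share in part. SPNCRNA.261 had 0 IP counts in both replicates against 94 and 50 in the WCE, which with a floor of 3 counts a library makes it at least 3.87-fold and 2.63-fold lower in the 2 pairs.

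High features often had high neighbours, although reads of one gene can spill over its ends into the next. SPNCRNA.1197 starts 577 nt upstream of cbl1 on the opposite strand and runs away from it, and cbl1, annotated as a cystathionine beta-lyase, was itself second among the mRNAs called higher, with 69291 and 61246 IP counts and 9466 and 6947 WCE counts (5.85 ± 0.25, adjusted p = 1.68e-07). gpi8, on the opposite strand and overlapping the end of cbl1, was lower (-1.05), and jnm1 beyond it, which is covered by SPNCRNA.1198 (4.64) on the opposite strand, was higher (4.60). At nam1 the upstream mlo3, which encodes an mRNA export factor and overlaps the start of nam1, had a log2 of 4.18 and the downstream byr2, the MAP kinase kinase kinase of pheromone signalling, had 3.17, while clg1 and mrpl7 further out were lower (-1.42 and -1.73). At meiRNA the next gene on the same strand, aga1 (5.04), was high, and mrpl8, which overlaps the start of meiRNA, was not called (-0.22). Of the 106 features with a log2 of 4 or more and a reference position (without rRNA and tRNA), the nearest feature that does not overlap was higher in 45 (42.5%), against 29.5% for all 6491 features with a position. For features at -2 or less the same share was 26.6%.

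**Figure D2:**
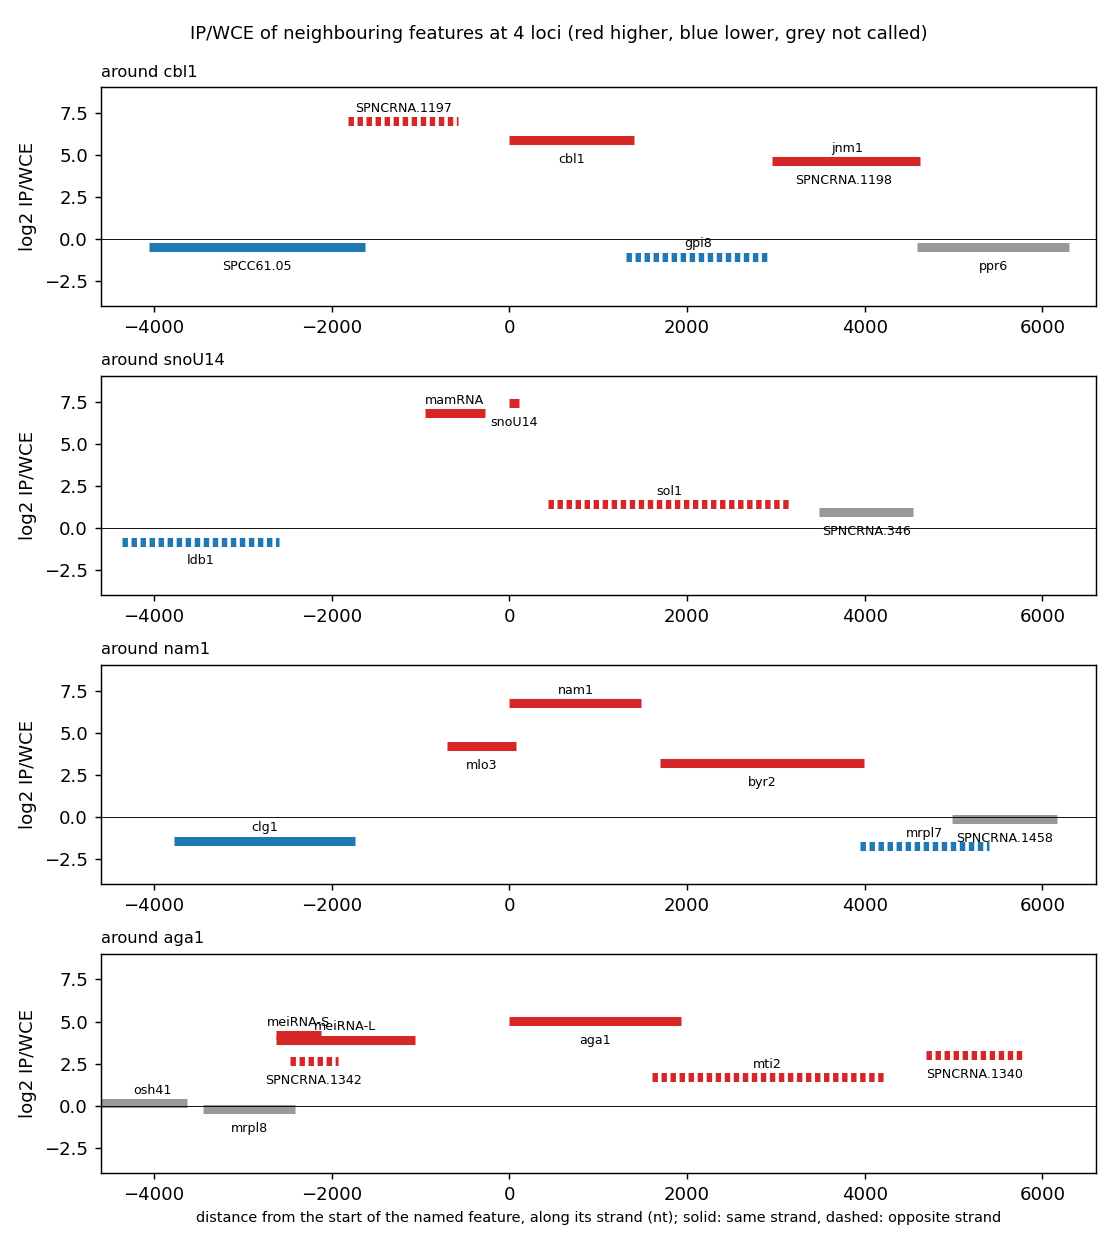
log2 IP/WCE of the features around cbl1, snoU14, nam1 and aga1, drawn to scale against the distance from the start of that feature along its strand. Red bars are called higher, blue lower and grey not called, and dashed bars lie on the opposite strand. High features stand side by side (SPNCRNA.1197 at 6.99 and cbl1 at 5.85), with lower ones next to them (gpi8 at -1.05).

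The meiotic mRNAs for which removal by Mmi1 has been described were higher without exception: 10 of 10 passed the test, with a median log2 of 4.63 (4.65 and 4.61 in the 2 pairs), against 30.0% of all features. The list was drawn up with the study's own targets in view and with earlier results of these data known. The 10 of 10 therefore describes the list and is no test. mug9, a meiotically upregulated gene, was the highest mRNA called, with 7174 and 5565 IP counts and 840 and 657 WCE counts (5.93 ± 0.16, adjusted p = 5e-08). ssm4, the microtubule-binding subunit of dynactin, had 15988 and 14122 IP counts and 3089 and 2282 WCE counts (5.34 ± 0.16). Both were low in the extract and lay high above it in both IP libraries. mug8 (5.30 ± 0.22) and mug10 (5.05 ± 0.16) came next. mei4, the forkhead transcription factor of meiosis, had 21087 and 16894 IP counts and 6517 and 4599 WCE counts (4.63 ± 0.18, adjusted p = 1.15e-07). The cyclin gene crs1 (4.64), the meiotic cohesin gene rec8 (4.46) and the recombination gene mcp7 (4.45) had nearly the same value as mei4. mcp5, which anchors dynein at the cortex, had 34764 and 29605 IP counts and 13948 and 9783 WCE counts (4.30 ± 0.20, adjusted p = 3.07e-07), but SPNCRNA.1397 covers it whole on the opposite strand. The lowest of the list was spo5, a meiotic RNA-binding protein, which was abundant in the extract (67144 and 44703 WCE counts against 46190 and 34721 in the IP, 2.39 ± 0.20) and lost its call with library totals.

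Other lists of meiotic genes held members on both sides. The 91 genes named mug, for meiotically upregulated, had 25 higher and 27 lower, close to the shares over all features (30.0% and 32.6%). Of 20 genes of meiotic recombination and cohesion 14 were higher and 2 lower, with a median of 1.99 that turned to -0.37 with library totals. The recombination and cohesion genes rec8, mcp7, rec27, rec15 and rec10 led it (4.46 to 3.35), although rec27 and rec15 lie under features on the opposite strand by 97.7 and 100%. At the other end dmc1, the meiotic recombinase, had 787 and 975 IP counts against 28180 and 21904 in the WCE (-1.98 ± 0.13, adjusted p = 1.66e-06), and it too is covered by a lncRNA. rec24 was lower (-1.22 ± 0.43), from 130 and 36 IP counts, and lost its call without the replicate block. Of 14 regulators of meiotic entry and division, 5 were higher and 4 lower, near the shares over all features, around a median of 0.26. rep1, an activator of the cell cycle factor MBF, had 12148 and 12019 IP counts and 3667 and 2448 WCE counts (4.85 ± 0.16, adjusted p = 5.74e-08). ste11, the factor that switches on mating and meiotic genes, was lower (-0.87 ± 0.13), as were pat1 (-0.61), the kinase that holds meiosis off, and mes1 (-1.29), an inhibitor of the anaphase-promoting complex in meiosis.

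The horsetail movement is the dynein-driven sweep of the nucleus in meiotic prophase. Of 11 genes of movement and telomere bouquet, 6 were higher and 2 lower, with a median of 0.87 (-1.49 with library totals). Among all features 30.0% were higher and 32.6% lower. Genes whose annotated product names dynein, dynactin or centractin, grouped after their values were seen, numbered 9, of which 7 were higher. The 7 include mcp5 (4.30), a dynein anchor and no subunit, which SPNCRNA.1397 covers whole on the opposite strand. The dynactin genes ssm4 (5.34), arp1 (4.99) and jnm1 (4.60) and the meiotic dynein chains dic1 (4.30) and dli1 (4.19) were among them, though SPNCRNA.1198 covers jnm1 by 95.7% on the opposite strand, and arp1 had 4419 and 4963 IP counts and 1246 and 892 WCE counts (± 0.15, adjusted p = 5e-08). The heavy chain dhc1, abundant in the extract, had 1.73 ± 0.17. dlc2 was not called (0.72, adjusted p = 0.0602), and dlc1, a light chain that also serves outside meiosis, was lower (-1.92 ± 0.26, 98 and 66 IP counts against 2420 and 2000 in the WCE). Among the bouquet genes bqt1 (2.94) was higher and bqt3 (-1.75 ± 0.20) lower, and of bqt1, bqt2, bqt3 and bqt4 the values ran from 2.94 to -1.75.

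Genes of later meiotic steps and of mating lay on both sides, where 30.0% of all features were higher and 32.6% lower. Of 20 sporulation and spore wall genes 5 were higher and 10 lower (median -0.44). Among the higher ones chs1, a chitin synthase, had 9895 and 10274 IP counts and 5149 and 3574 WCE counts (4.07 ± 0.15, adjusted p = 8.73e-08). spo3, needed to form the spore membrane, had 1.92 ± 0.13 (-0.44 with library totals), and the septin spn5 (-1.66 ± 0.16) and the glucanase agn2 (-2.19 ± 0.20) were the lowest. Of 19 genes of the pheromone pathway 5 were higher and 11 lower (median -0.69). The higher ones were byr2 (3.17 ± 0.14), rgs1 (2.80 ± 0.18), fus1 (2.63), ras1 (1.77) and mam2 (1.48), which encode signalling proteins apart from the formin fus1. Other signalling genes were lower, among them the MAP kinase gene spk1 (-0.88), ste4 (-0.69), ste6 (-0.57) and the receptor gene map3 (-0.80), and byr1 (0.20) and gpa1 (-0.31) were not called. The pheromone genes mfm1, mfm2 and mfm3 were lower (-1.76, -2.24 and -1.37), and so was the agglutinin gene mam3, with 1226 and 751 IP counts against 41895 and 33401 in the WCE (-2.44 ± 0.18, adjusted p = 3.28e-06), with 19 UNAAAC motifs in its transcript.

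For transcripts of the 2 tagged proteins the IP replicates disagreed. mmi1 was counted 141927 and 33407 times in the IP and 27679 and 21062 times in the WCE (4.35 ± 0.57, adjusted p = 0.00123), with 5.38 in pair 1 and 3.33 in pair 2. mei2 was counted 76150 and 35269 times in the IP and 269716 and 193242 times in the WCE and was not called (0.70 ± 0.28, adjusted p = 0.0503). nmt1, the source of the promoters that drive both, was counted 38338 and 8956 times in the IP and 367546 and 267168 times in the WCE and was not called (-1.24 ± 0.52). SPNCRNA.1234 covers nmt1 whole on the opposite strand. In all 3 the IP of replicate 1 was the higher, by more than the WCE libraries differed. The nmt promoters drive all 3 in this strain, and the part this has in their counts was not tested. apc10, of the anaphase-promoting complex and named after its values were seen, had the largest log2 of any mRNA and the same unevenness (43633 and 4221 IP counts, 622 and 433 WCE counts, 7.56 ± 1.83), and it was not called.

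Of 22 genes of the Mmi1-Erh1 complex, its partners and the nuclear exosome, 9 were higher and 7 lower around a median of -0.13, against 30.0% higher and 32.6% lower among all features. Beside mmi1 itself, rrp43, an exosome core subunit, had 970 and 1545 IP counts and 1009 and 734 WCE counts (3.35 ± 0.21, adjusted p = 1.38e-06). red1 (2.10), iss10 (1.97) and red5 (1.96), which belong to the machinery that passes Mmi1 targets to the exosome, were higher, and erh1, the partner of Mmi1, had 0.89. The other core subunits of the exosome lay on both sides: rrp45 (1.33) and rrp41 (0.81) were higher, rrp46 (-0.12) and csl4 (-0.14) were not called, and rrp42 (-0.66), rrp4 (-0.88), rrp40 (-1.14 ± 0.20) and mtr3 (-1.25 ± 0.23) were lower. Of 8 Ccr4-Not genes 2 were higher and 4 lower, and caf1, a deadenylase, was the lowest (-1.64 ± 0.22). The median of that complex was -0.13.

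Most ribosomal protein and elongation factor mRNAs were lower. Of 131 cytosolic ribosomal protein genes 119 were lower and 7 higher, with a median of -2.23 (-2.12 and -2.24 in the 2 pairs), against 32.6% lower among all features. rps2601 had 66 and 30 IP counts and 5324 and 4830 WCE counts (-3.92 ± 0.31, adjusted p = 5.25e-06), but lies whole under SPNCRNA.625 on the opposite strand. rpl1502 (-3.83 ± 0.30), rps1502 (-3.53 ± 0.18) and rpl3401 (-3.44 ± 0.28) had between 45 and 118 IP counts. All 7 translation elongation factor genes were lower (median -2.38), among them tef103 with 3277 and 3488 IP counts and 200161 and 175999 WCE counts (-2.95 ± 0.19). These mRNAs, though among the most abundant of the extract, were low in the IP relative to their WCE counts. Not all were rare there, since tef3 still had 4934 and 5988 IP counts.

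A few ribosomal protein genes went the other way, and for some the paralog did not. rps2202 had 14394 and 11958 IP counts and 5631 and 4263 WCE counts (4.26 ± 0.15, adjusted p = 8.73e-08), whereas rps2201 had 93 and 10 IP counts and 6480 and 5265 WCE counts (-4.19 ± 1.05, adjusted p = 0.0896). The low value of rps2201 was called without the replicate block and by DESeq2. rpl3002 had 3950 and 4272 IP counts and 3603 and 2660 WCE counts (3.25 ± 0.13, adjusted p = 1.18e-07), and rpl3001 had 255 and 247 against 7067 and 5627 (-1.81 ± 0.16, adjusted p = 1.02e-05). rpl102 (1.23) and rpl101 (-2.65) lay apart as well, though rpl102 lies by 75.1% under a feature on the opposite strand. The differences between paralogs were not tested, and paralogs can share reads. mug165, which overlaps the end of rps2202 on the opposite strand, was also higher (4.07). rps2202 and rpl3002 hold 1 UNAAAC each.

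Most mRNAs of glycolysis were lower as well, against 32.6% of all features. Of 16 genes of glycolysis and fermentation 14 were lower and 1 higher, with a median of -2.61. pdc101, pyruvate decarboxylase, had 3124 and 2962 IP counts and 242152 and 196775 WCE counts (-3.32 ± 0.20, adjusted p = 9.26e-07). adh1, alcohol dehydrogenase, had 2311 and 1794 IP counts and 135477 and 111958 WCE counts (-3.08 ± 0.18, adjusted p = 9.82e-07), and SPCC13B11.02c has almost the same counts as adh1 and no value of its own. tdh1 (-2.91 ± 0.19), fba1 (-2.58 ± 0.17) and eno101 (-2.35 ± 0.18) were close to these. The single higher gene, pdc201 (0.80 ± 0.17, -1.56 with library totals), is a minor paralog of pdc101 in counts. Among the lowest mRNAs stood also tal1, transaldolase of the pentose phosphate pathway (-3.15 ± 0.13), por1, the voltage-dependent anion channel (-3.26 ± 0.16), trx1, a cytosolic thioredoxin (-3.22 ± 0.15), and the uncharacterized SPAC922.04 (-3.29 ± 0.17). The uncertain ends of this order are ssb3, a subunit of replication factor A with 8 and 5 IP counts (-3.10 ± 0.61), and cor1, a cornichon protein, with 89 and 12 (-3.19 ± 0.66).

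In further lists most genes were lower, against 32.6% of all features. Of 10 core histone genes 9 were lower (median -1.68). The exception was pht1, the histone variant H2A.Z (0.75 ± 0.18), which lost its call with the scaling outside rRNA and turned to -1.61 with library totals. Of 12 heat shock genes 11 were lower and 0 higher, from hsp9 (-2.75 ± 0.14) to mcp60, a chaperonin that was not called (-0.19). SPNCRNA.639 covers mcp60 by 74.9% on the opposite strand. Of 10 cytoskeleton genes 9 were lower, including act1, actin, with 2117 and 1837 IP counts and 84391 and 67740 WCE counts (-2.42 ± 0.14, adjusted p = 8.89e-07), and the tubulin gene nda2 (-2.46 ± 0.15). All 13 copies of the Tf2 retrotransposon were lower within a narrow range, from -0.61 to -0.81, but the copies share their sequence and are hardly separate measurements. Of 6 cell wall synthase genes 5 were lower and 0 higher (gas1 -2.03, bgs4 -1.84), and of 6 genes of iron uptake 4 (fip1 -1.54, str2 -1.50). Thiamine genes were lower in 4 of 7, led by thi2, the thiazole enzyme, with 3519 and 3669 IP counts and 177258 and 153004 WCE counts (-2.68 ± 0.18).

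**Figure D3:**
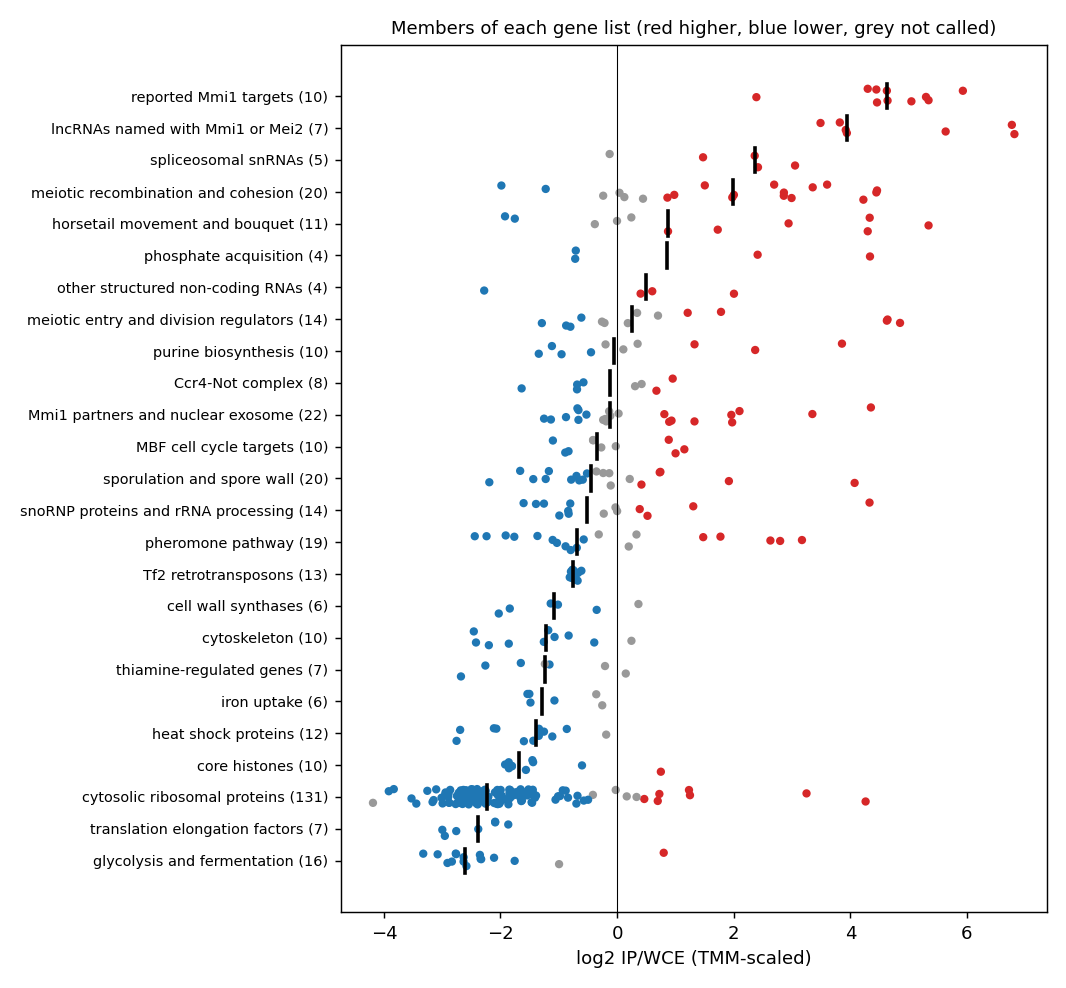
log2 IP/WCE (TMM-scaled) of every tested member of each gene list, with the number of members in brackets and the median as a black bar. Red points are higher, blue lower and grey not called. The 10 reported Mmi1 targets lie around 4.63 and the 131 ribosomal protein genes around -2.23, with rps2202 and rpl3002 on the high side.

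Some metabolic and regulatory mRNAs were higher while others of their pathway were not. Of 4 phosphate genes, tgp1, a glycerophosphodiester transporter, had 4802 and 4221 IP counts and 1907 and 1335 WCE counts (4.34 ± 0.13, adjusted p = 5e-08), and pho1, the acid phosphatase, had 2.41 ± 0.20, though its call was lost with library totals. Both genes lie downstream of lncRNAs that repress them, but whether this sets them apart was not tested. pho84, which lies beside pho1 in the phosphate locus that also holds the lncRNA prt2 (3.49), was lower (-0.71). pho7 was lower too (-0.72). Of 10 purine genes 3 were higher and 4 lower, close to the shares over all features, and ade5, a glycinamide ribonucleotide enzyme, had 6481 and 7794 IP counts and 3850 and 3209 WCE counts (3.86 ± 0.14, adjusted p = 8.73e-08), while ade6 was lower (-1.34 ± 0.17). Of 14 genes of snoRNP proteins and rRNA processing 4 were higher and 7 lower, against 30.0% higher and 32.6% lower among all features. The RNA helicase gene dbp2 had 33059 and 40292 IP counts and 14874 and 11373 WCE counts (4.33 ± 0.22, adjusted p = 4.1e-07), whereas the snoRNP core genes cbf5 (-1.60) and nop56 (-1.39) were lower. SPNCRNA.1051 covers cbf5 whole on the opposite strand. Of 10 MBF cell cycle targets 3 were higher and 3 lower, which is about the share over all features (30.0% and 32.6%), with yox1 and srw1 (1.00) at one end and cdc22 (-1.10) and cig2 (-0.89) at the other. aga1, an enzyme of arginine synthesis, was sixth among the mRNAs called higher, with 24916 and 21685 IP counts and 6204 and 4142 WCE counts (5.04 ± 0.19, adjusted p = 1.11e-07).

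A few transcription factor genes are given here because their values were seen to be high, and they stand for no group. prf1, a factor of transcription elongation, had 15502 and 17970 IP counts and 6582 and 5594 WCE counts (4.30 ± 0.17, adjusted p = 1.11e-07). sua7, transcription factor TFIIB, had 3.60 ± 0.14, and tbp1, the TATA-binding protein, had 13846 and 14583 IP counts and 11377 and 8690 WCE counts (3.36 ± 0.15, adjusted p = 2.21e-07). Each lay above the WCE in both pairs. The DNA-binding factors stb3 (4.39) and gaf1 (3.06) were also higher. For 4 of the 15 highest mRNAs a remark is needed. SPBC1921.04c shares the reads of sno20, which lies inside it on the opposite strand, and SPCC330.19c is covered by a lncRNA by 78.3%. SPAC23H4.05c had 326 and 411 IP counts (5.0 ± 0.28), and crs1 is covered by 37.2%. The remaining ones of the 15 not yet given are meu32 (4.77 ± 0.16) and mug45 (4.73 ± 0.15), both meiotically upregulated genes.

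Most small nuclear and nucleolar RNAs were higher. snoRNAs guide the modification and cleavage of rRNA, the box C/D kind with fibrillarin and the box H/ACA kind with Cbf5. The 19 RNAs that RefSeq names as box H/ACA had a median of 4.18, with 17 higher, and the other 47 small RNAs had 2.50, with 40 higher. snR91 had 6864 and 7930 IP counts and 520 and 770 WCE counts (6.38 ± 0.21, adjusted p = 6.36e-08). snR5 (5.27 ± 0.19), snR3 (5.20 ± 0.22) and sno20 (5.0 ± 0.40) followed, and snR30, the U17 RNA of early rRNA cleavage, had 93610 and 108849 IP counts and 22929 and 26057 WCE counts (4.89 ± 0.27, adjusted p = 7.1e-07). None of these but snR30 holds a UNAAAC. In unpaired fits the call of snR3 was lost without IP replicate 2 (4.54), and that of sno20 without either IP replicate (4.86 both times). The 21 small nuclear and nucleolar RNAs lying within another feature on the same strand had a median of 2.35, and the other 45 had 3.33. The study followed up a few sn/snoRNAs picked from this experiment by pulldown of Mei2. It saw no significant enrichment that depended on an RNA-recognition motif of Mei2 and set them aside.

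Of 5 spliceosomal RNAs 4 were higher, but in unpaired fits only 2 without either IP library and 3 without either WCE library. U5 (snu5) had 126 and 172 IP counts and 125 and 129 WCE counts (3.05 ± 0.38, adjusted p = 9.77e-05), U4 (snu4) had 2.42 ± 0.62, U6 (snu6) 2.36 and U1 (snu1) 1.47 ± 0.14. U2 (snu2), by far the most counted of them, had 1736 and 3569 IP counts and 15419 and 24616 WCE counts and was not called (-0.13 ± 0.11, adjusted p = 0.35). With library totals the median of the 5 fell from 2.36 to 0.00. Among other structured RNAs telomerase RNA, ter1, had 5248 and 5105 IP counts and 10816 and 7898 WCE counts (2.00 ± 0.12, adjusted p = 1.07e-06, but -0.35 with library totals). The RNA subunits of RNase MRP (mrp1, 0.40 ± 0.12) and RNase P (rrk1, 0.60 ± 0.19) were close to a typical feature and lost their calls without the replicate block.

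The tRNAs lay on both sides. Of 163 tested, 20 were higher and 59 lower, with a median of -0.61, and the 2 pairs were unlike (-0.27 and -1.64). Their share of the counts was 0.0203% and 0.0199% in the IP and 0.275% and 0.746% in the WCE, so the WCE replicates differed more than the IP replicates. Without WCE replicate 2 the median was 0.11. All 8 aspartate tRNAs were lower (median -3.91), as were 11 of 12 glycine (-5.03), 9 of 10 glutamate (-3.98), 8 of 10 threonine (-3.01), 5 of 7 methionine (-3.81) and 4 of 6 glutamine tRNAs (-3.57). None of the 8 alanine (1.60), 13 leucine (0.79) and 4 tyrosine tRNAs (1.80) was lower, and 1 of 12 lysine tRNAs was (median 1.75). SPBTRNAGLY.03 had 2 and 3 IP counts and 676 and 2618 WCE counts. SPATRNAGLU.04 had 0 IP counts against 79 and 248, at least 3.25-fold and 13-fold lower in the 2 pairs with the floor of 3 counts. SPATRNACYS.01, of the opposite kind, had 499 and 369 IP counts and 230 and 218 WCE counts (3.78 ± 0.26, adjusted p = 2.4e-06). tRNA genes of one kind are near copies, so these counts are not separate measurements.

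Across mRNAs the share called higher rose with the density of UNAAAC. The motif was searched on the sense strand of the spliced transcript, and 89.6% of the 5075 mRNAs with a reference sequence hold at least one. Below 1 motif per 1000 nt, 13.9% of 1270 mRNAs were higher and 48.6% lower. The share higher was 31.8% between 2 and 3 motifs, 51.8% between 4 and 5, and 68.5% of the 92 mRNAs with 5 or more, of which 7.61% were lower. The median log2 moved from -0.54 to 1.19 across these bins. The mRNAs called higher had a median of 2.12 motifs per 1000 nt and those called lower 1.42, and for the 40 called mRNAs with a log2 of 4 or more the median was 4.90. Across 5075 mRNAs, which are not independent replicates, Spearman's correlation with the log2 was 0.28 for UNAAAC density, -0.35 for GC content, which shares base composition with the motif, and -0.01 for length. The study proposes that the third RNA-recognition motif of Mei2 recognizes UU(U/G/A)G. The median density of this element was 16.7 per 1000 nt in mRNAs called higher and 16.9 in those called lower, with a Spearman correlation of -0.02.

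Clusters were rarer than single motifs. A coding stretch of 90 nt with 3 or more UNAAAC was found in 104 of 5075 mRNAs (2.05%), in 53 of 1263 called higher (4.20%) and in 21 of 1944 called lower (1.08%). Among the 40 called mRNAs with a log2 of 4 or more, 12 had one (30.0%). Only 7 mRNAs had a stretch with 4 motifs, and all 7 were called higher: mug8 (5.30), mek1 (4.43), mcp6 (4.33), mcp3 (3.98), rec25 (2.86), mug4 (2.11) and pst3 (0.88). mek1 is a meiotic kinase, mcp6 organizes microtubules for the horsetail movement, and rec25 belongs to the linear elements of meiotic chromosomes. SPNCRNA.1356 covers mcp6 whole on the opposite strand. lncRNAs that lie apart from the opposite strand had a median of 2.22 motifs per 1000 nt in the 276 higher and 1.48 in the 38 lower.

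**Figure D4:**
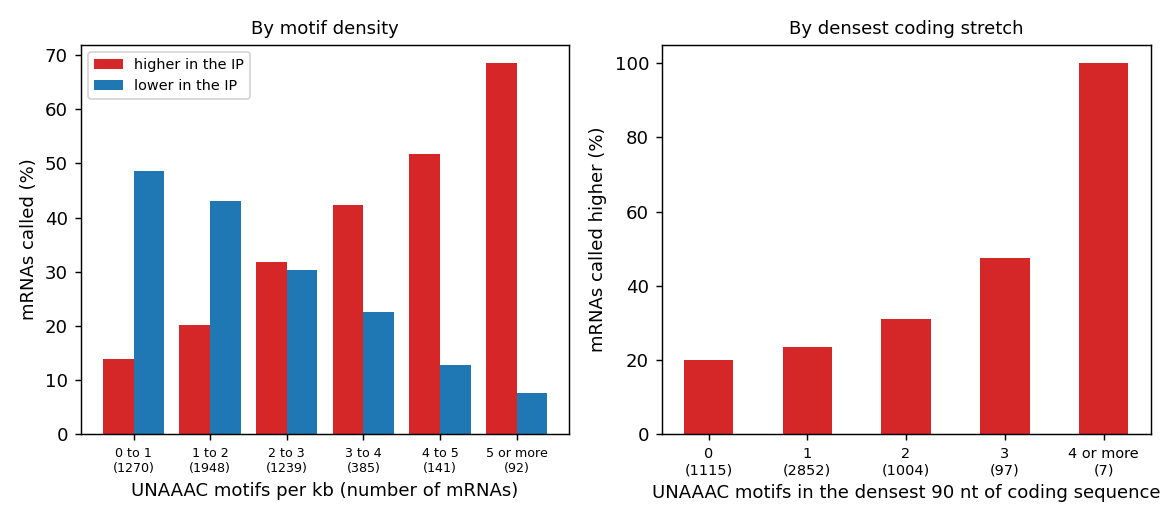
Left, percent of mRNAs called higher (red) and lower (blue) by the number of UNAAAC motifs per 1000 nt of spliced transcript, with the number of mRNAs below each bin. Right, percent called higher by the number of motifs in the densest 90 nt of coding sequence. The share called higher grew from 13.9 to 68.5% on the left and from 20.1 to 100% on the right, where the last bar holds only 7 mRNAs.

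Abundance in the extract ran against the ratio. In the fifth of mRNAs with the fewest WCE counts per nt, 38.5% were higher and 5.91% lower, and in the fifth with the most 7.29% were higher and 83.1% lower, with a Spearman correlation of -0.53 over all. The WCE counts are part of both measures, which by itself sets a negative relation. The 10 most abundant mRNAs per nt in the extract included pdc101, tdh1, tef103, thi2, fba1, isp3 (-2.54 ± 0.17) and eno101, all lower, and also nmt1, which was not called. On the opposite strand, SPNCRNA.606 covers 62.5% of isp3 and SPNCRNA.1234 the whole of nmt1. SPAC27E2.11c, one of the same 10, had 18417 and 16635 IP counts and 224685 and 194819 WCE counts (-0.74 ± 0.19), but 94.3% of it lies over prl53 on the same strand. Introns were held by 55.8% of the mRNAs called higher, 42.3% of those called lower and 48.5% of all. The mRNAs called higher had a median GC content of 36.4% and those called lower 38.2%.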

How the data were processed

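The deposited files hold raw read counts per annotated feature, which the authors made from paired-end reads with bcl2fastq 2.18.12, cutadapt 1.15, Bowtie2 and a BED multi-coverage counter. The genome build, the annotation and the strand setting are not given in the sources used here. The row without a feature name, 0.00952 to 0.0552% of a library's counts, was left out. Of 6973 features, 6813 matched a RefSeq entry (ASM294v3) by identifier and 160 did not.

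Counts of the 2 IP and 2 WCE libraries were fitted with edgeR 4.0.16 (R 4.3.3; TMM, filterByExpr by group, robust quasi-likelihood, the replicate number as a block, Benjamini-Hochberg adjustment over 6812 features). The block was used because each IP was made from the WCE of its number; deviations of same-numbered libraries correlated at 0.116. The fit leaves 1 residual degree of freedom. SE is the absolute log2 divided by the square root of F. The main fit was also run on simulated counts in which IP and WCE shared a composition apart from known changes. The real libraries differ far more, so that run does not test their scaling. Alternatives were no block, 2 other scalings, DESeq2 1.42.0, no count filter, an absolute log2 of at least 1, exclusion of opposite-strand overlaps and each library or pair left out.

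Members, gene lists and the rule for named features were chosen with earlier results of these data known. Named were features with at least 50 counts in each WCE library, past the threshold and of one sign in both pairs (the 15 highest and lowest mRNAs, 8 lncRNAs at each end that lie by less than 50% over the opposite strand, the 6 highest and 3 lowest sn/snoRNAs, and 3 tRNAs at each end), the 10 most abundant mRNAs per nt, the 2 highest and lowest members of each list, and features the study names. Further features are named as list members, neighbours, paralogs or where the text says so. A list of mitochondrially encoded RNAs matched 0 features.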

Additional observations from a re-analysis of the deposited data

Results flagged for a closer look

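The row that carries no feature name, which entered no comparison, held 11339 and 20879 counts in the IP libraries and 5406 and 4759 in the WCE libraries. It drew attention because its share of a library's counts was higher in both IP libraries (0.0311% and 0.0552%) than in both WCE libraries (0.0101% and 0.00952%).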

How the results depend on the processing

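Without the replicate block 2126 features were higher and 2185 lower, against 2046 and 2223, and of 157 named features 4 lost their call (rrk1, mrp1, rcd1, rec24) and 1 (rps2201) gained one. Library totals gave 283 and 5856, and an absolute log2 of at least 1 left 1365 and 1298. With 1 library left out, in fits without the block, 1372 to 2607 were higher and 1548 to 2719 lower; a lone library is there assumed to vary like the other group.

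The class medians moved as follows. The mRNA median (-0.197) was -0.183 without the replicate block, -2.556 with library totals, -0.529 with totals outside rRNA, -0.19 with DESeq2, -0.207 without the count filter and -0.214 to -0.187 with libraries left out. The lncRNA median (0.659) was 0.702, -1.699 and 0.327 under the first 3 of these and 0.626 to 0.706 with libraries left out (0.692 without WCE replicate 2). The sn/snoRNA median (3.078) was 3.087, 0.72, 2.745, 3.085 and 3.064, and 2.962 to 3.264 with libraries left out (2.965 without IP replicate 2, 3.25 without WCE replicate 2, 3.067 and 3.062 without pairs 1 and 2). The tRNA median (-0.607) was -2.906 with library totals and ran from -1.64 without pair 1 (-0.282 without pair 2) to 0.108 without WCE replicate 2. The rRNA median (6.649) was 4.312 with library totals and 5.887 to 7.411 with libraries left out.

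With library totals, which shift every value, 16 named features turned negative: ter1 (-0.35), spo3 (-0.44), snu1 (-0.88), gar2 (-1.05), yox1 (-1.21), srw1 (-1.36), not11 (-1.41), pdc201 (-1.56), pht1 (-1.61), mei2 (-1.66), not2 (-1.68), rrk1 (-1.76), mrp1 (-1.96), chs2 (-1.99), myo2 (-2.11) and bsu1 (-2.21). With totals outside rRNA myo2 (-0.087) and bsu1 (-0.184) did. rrk1 was -0.0095 without IP replicate 2, and snu2 was 0.30 without IP replicate 1 and 0.47 without WCE replicate 2. The cause of these changes beyond the scaling itself was not tested. Low IP depth outside rRNA limits the rare features most.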
